A study of Homo sapiens and Mus musculus with 12 samples.

Results

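The genes described here are 36 genes of cholesterol and fatty acid synthesis, listed by name and with no cut on a measured value, although earlier results of these data were known when the list was drawn up. They comprise 18 enzymes of the route from acetyl-CoA to cholesterol (the sterol steps), 9 enzymes of fatty acid synthesis, elongation and desaturation (the fatty acid steps), 5 genes of sterol sensing and transfer, and 4 genes that activate fatty acids to acyl-CoA or pass them into mitochondria. All 36 were found by symbol among the 16782 genes of the A375 table. In the Yumm1.7 table of 12711 genes they correspond to 37 genes, because mouse has Scd1 and Scd2 in place of SCD and both were kept. Averaged across its line's 6 libraries, each was at 1 TPM or more, and all entered every comparison, together with 12638 genes in all in A375 and 10492 in Yumm1.7.

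A375 is a human melanoma line and Yumm1.7 a mouse melanoma line, both labelled as skin, and the labels give no further genotype, drug, dose or time. According to the series' design text, parental and drug-tolerant persister cells of each line were fractionated on sucrose gradients. The sample titles call the states P and S without spelling them out, so these letters are kept, and every difference is S relative to P. Each state was sequenced as RNA taken before the gradient (input), as the monosome fraction, which also holds several lighter fractions, and as the polysome fraction from the bottom of the gradient, where mRNAs carry many ribosomes. There is 1 library for each line, state and fraction, 12 in all, so no value below has a replicate, a standard error or a p-value. Whether a difference exceeds the spread between cultures could not be assessed.

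Cholesterol is built from acetyl-CoA through mevalonate, farnesyl diphosphate, squalene and lanosterol, and fatty acids are built from the same acetyl-CoA through malonyl-CoA. Both routes are controlled by the transcription factors SREBP1 and SREBP2, the products of SREBF1 and SREBF2. In sterol-rich cells INSIG1 holds the SREBPs and their escort SCAP in the endoplasmic reticulum, and when sterols run low the complex moves to the Golgi, where the factors are cut free to enter the nucleus. SREBPs act at sterol regulatory elements and usually need NF-Y, a factor that binds CCAAT boxes nearby. In cancer cells these routes supply membranes, and the degree of desaturation of membrane lipids affects how readily they are peroxidised.

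Promoter sequence was available for 32 of the 36 human genes, in 45 windows of 250 bases before to 50 bases after an annotated start (RefSeq, GRCh38.p14). ACAT2, FDFT1, SQLE and FASN had no entry. The CCAAT box, searched on both strands, stood in 15 of the 20 windows of sterol steps, which belong to 13 of 15 genes, and in 8 of the 12 windows of fatty acid steps (66.7%). Over all 35116 windows of the table the share was 34.6%, and 10846 of 27305 genes had a window with a box. Windows of the same gene can overlap, as for ACLY and SC5D, so that a box can be counted in more than 1 window. At least 2 boxes were found in 55.0% of the sterol windows, 41.7% of the fatty acid windows and 10.8% of all windows. The sterol regulatory element letters TCACNCCAC were found for SREBF2 and for 1 of 5 windows of ACSL1 (1.13% of all windows hold them). The palindromic SREBP site TCACGTGA, which contains the E-box CACGTG, was found for INSIG1 alone among the 36 genes (0.98% of all windows). A match is a description of the letters and not evidence of binding. The 200 bases before the start are given for 4 genes, in lower case with CCAAT boxes (ATTGG on the other strand) and sterol elements in capitals. SREBF2 (chr22:41832905-41833104, plus strand) carries both kinds of site. INSIG1 (chr7:155297678-155297877, plus strand) carries the palindrome and a CCAAT box. MSMO1 (chr4:165327469-165327668, plus strand) carries 4 CCAAT boxes. It is the sterol step with the lowest input difference in Yumm1.7, but the sequence is human, and in A375 input it was within 2-fold (-0.30). CPT1A (chr11:68844278-68844477, minus strand), which was higher in S in both lines, carries none of the letters searched. TM7SF2, also higher in both lines, has 1 CCAAT box in its window, and ELOVL6, lower in both, has 0. A link between boxes and differences was not tested.

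SREBF2: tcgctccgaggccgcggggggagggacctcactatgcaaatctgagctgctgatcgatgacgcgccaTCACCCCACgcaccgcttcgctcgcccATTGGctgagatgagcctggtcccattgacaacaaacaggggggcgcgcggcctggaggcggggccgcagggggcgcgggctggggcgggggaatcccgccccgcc
INSIG1: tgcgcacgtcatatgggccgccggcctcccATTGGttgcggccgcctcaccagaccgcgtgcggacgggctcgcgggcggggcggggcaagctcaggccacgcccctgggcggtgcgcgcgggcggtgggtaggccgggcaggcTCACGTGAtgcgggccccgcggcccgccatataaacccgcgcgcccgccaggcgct
MSMO1: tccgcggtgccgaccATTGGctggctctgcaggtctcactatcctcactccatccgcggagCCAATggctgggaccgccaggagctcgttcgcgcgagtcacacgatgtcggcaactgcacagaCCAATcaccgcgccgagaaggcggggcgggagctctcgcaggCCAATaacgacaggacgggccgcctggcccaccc
CPT1A: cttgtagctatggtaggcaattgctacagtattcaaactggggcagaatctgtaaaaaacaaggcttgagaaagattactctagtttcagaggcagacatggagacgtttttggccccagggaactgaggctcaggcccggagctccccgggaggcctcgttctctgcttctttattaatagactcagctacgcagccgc

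TPM divides reads by transcript length and rescales each library to a total of 1000000, which allows levels of different genes to be set side by side per length. The genes listed held 66.6% of that total in A375 P monosomes and 71.9% in S monosomes, beside 87.5% and 90.1% in polysomes. In Yumm1.7 they held 84.5% to 94.4%. Plain ratios and sums of TPM below carry this difference between libraries. Differences are given as log2 of (TPM + 1) in S minus that in P, less the same difference of the median gene tested. This centring matters in Yumm1.7, where the median gene itself differed by -0.94 in input, -0.21 in monosomes and -1.53 in polysomes, against -0.20, 0.04 and -0.21 in A375. A gene counts as higher or lower when it is at least 2-fold from the median gene. Read depth is unknown, since TPM does not keep it. Melanocyte markers could be read for 5 of 7 genes in A375. Their summed level was 143 to 377 TPM in P and 301 to 566 TPM in S, but the genes did not all move alike. By TPM, DCT, PMEL and TYRP1 were higher in S in every fraction, and MITF was lower in every fraction. SOX10 was higher in S in input and monosomes and lower in polysomes. In polysomes DCT stood at 36.7 TPM in P and 226 TPM in S, and MITF at 78.4 TPM in P and 32.03 TPM in S. In Yumm1.7, 3 of 7 could be read, with a sum of 5.09 to 7.09 TPM in P and 0.571 to 2.29 TPM in S. Mitf was lower in S in every fraction (4.76 TPM in P input and 0.571 TPM in S input). Mlana went the other way in monosomes (0 TPM in P and 1.52 TPM in S) and polysomes (0.0796 and 1.29 TPM). Pmel was also higher in S in polysomes (0.388 and 0.577 TPM). Fibroblast and matrix markers (8 of 9 in the Yumm1.7 table) summed to 19.3 to 69.1 TPM in Yumm1.7 P, with 2 of the 8 at 0 in each P library, and to 336 to 760 TPM in Yumm1.7 S. Col3a1 was the largest part of the Yumm1.7 S sum, at 204 TPM in input. Pdgfra was lower in S in input (0.383 TPM in P and 0.218 TPM in S) and polysomes (0.679 and 0.253 TPM). The other fibroblast and matrix markers were higher in S in every fraction. In A375 the 3 fibroblast markers listed summed to at most 7.15 TPM in any library. The part of these markers in the differences between Yumm1.7 P and S below was not tested.

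In A375, most genes of lipid synthesis made up a smaller share of the mRNA in S than in P. In bulk RNA, fewer cells with a transcript and less of it per cell cannot be told apart. In input RNA, 27 of the 36 genes lay below the median gene, 11 of them at least 2-fold lower and 2 at least 2-fold higher, with a median difference of -0.67 log2 units. Among all genes tested, 16.2% were lower and 15.6% higher by this criterion. The fatty acid steps were lower by more (median -1.08, 5 of 9 lower, none higher) than the sterol steps (median -0.59, 5 of 18 lower and 1 higher). In the polysome libraries 16 of 36 genes were lower and 2 higher, beside 15.6% and 16.5% of all genes. In the monosome libraries 5 were lower, near the 13.2% of all genes, and 2 were higher, a share below the 11.7% of all genes.

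In Yumm1.7 the genes lay on both sides of the median gene. In input RNA 14 of 37 genes were lower and 6 higher, beside 22.3% lower and 23.1% higher of all genes tested, with a median of -0.39. The sterol steps had a median of 0.01, with 6 of 18 lower and 4 higher. The fatty acid steps had a median of -0.34, with 3 of 10 lower and 1 higher. In monosomes 12 genes were lower and 9 higher (background 24.0% and 25.4%), and in polysomes 13 were lower and 5 higher (22.5% and 24.1%). The shares of higher genes did not exceed those among all genes. Without centring on the median gene, the Yumm1.7 counts became 22 lower and 1 higher in input and 28 lower and 0 higher in polysomes. The median gene was then itself at -0.94 and -1.53, so that most genes tested were past 2-fold lower in polysomes. The shares of all genes were not counted without centring. When each gene was set against genes of like GC content instead, an alternative chosen after seeing the data, 2 genes were higher in input in place of 6, and 5 in monosomes in place of 9.

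**Figure D1:**
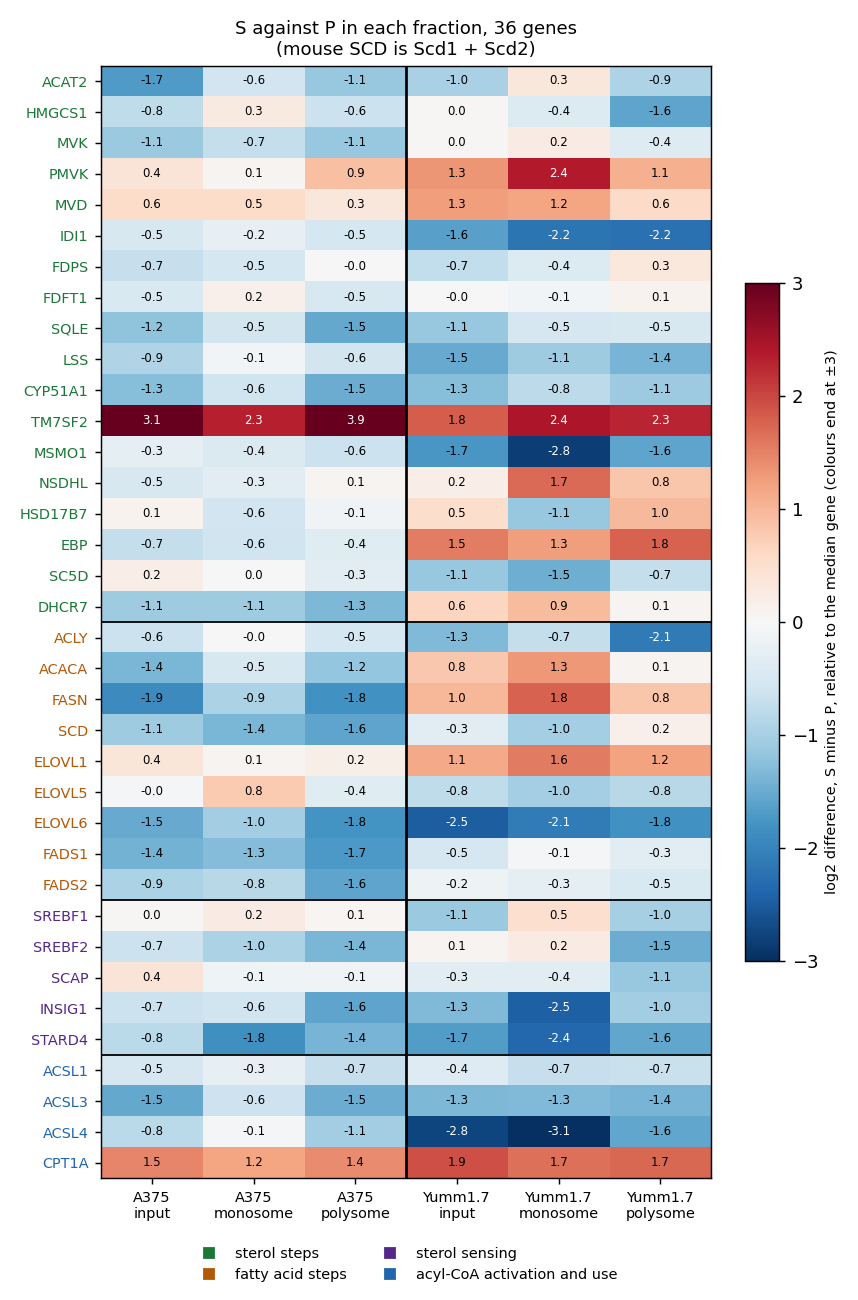
Log2 difference of S against P, relative to the median gene, for each of the 36 genes (rows, grouped by role) in the input, monosome and polysome libraries of A375 and Yumm1.7 (columns). Red is higher and blue lower in S. The fatty acid rows are mostly blue in A375 and mixed in Yumm1.7, and TM7SF2 and CPT1A are red in all 6 columns.

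Triplets of values from here on are in the order input, monosome and polysome. SREBF1, which mainly drives fatty acid synthesis, stood at 39.3, 8.18 and 65.3 TPM in A375 P and at 35.1, 10.1 and 58.6 TPM in S. The differences were 0.04, 0.24 and 0.05 relative to the median gene, so that S lay near it in all 3 fractions. In Yumm1.7 the levels were 22.9, 7.32 and 41.4 TPM in P and 4.75, 9.18 and 6.41 TPM in S. There the S input and polysome libraries held less Srebf1 (-1.12 and -0.99 relative to the median gene) and the monosome library did not (0.50).

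SREBF2, which mainly drives the sterol genes, was lower in the S polysomes of both lines. Its levels in A375 were 31.3, 11.1 and 45.8 TPM in P against 16.9, 5.39 and 14.5 TPM in S, with differences of -0.65, -0.96 and -1.38. In Yumm1.7 they were 34.8, 24.4 and 47.7 TPM in P against 18.96, 24.9 and 4.98 TPM in S, or 0.09, 0.24 and -1.49. In the mouse cells the polysome library alone was more than 2-fold lower, and the input and monosome libraries lay near the median gene.

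SCAP, the escort of the SREBPs, was near the median gene in A375, with 29.3, 5.99 and 32.7 TPM in P and 33.6, 5.53 and 26.2 TPM in S (0.39, -0.14 and -0.10). Yumm1.7 Scap went from 11.5, 5.200 and 28.05 TPM in P to 4.27, 3.21 and 3.59 TPM in S, and was past 2-fold lower in the polysome library (-0.31, -0.35 and -1.13). INSIG1, the sterol-sensitive anchor of SCAP and itself a classical SREBP target, stood at 50.7, 46.7 and 41.7 TPM in A375 P and 27.7, 31.5 and 11.3 TPM in S (-0.65, -0.59 and -1.59). In Yumm1.7 it stood at 19.6, 36.01 and 33.1 TPM in P and 3.300, 4.85 and 4.73 TPM in S (-1.33, -2.45 and -1.04), so that all 3 S libraries were below all 3 P libraries. STARD4, a cytosolic carrier of cholesterol, stood at 9.77, 9.08 and 10.8 TPM in A375 P and 4.32, 1.92 and 2.88 TPM in S (-0.82, -1.83 and -1.40). Its Yumm1.7 levels were 9.91, 11.8 and 15.6 TPM in P and 0.7997, 1.16 and 0.951 TPM in S (-1.66, -2.36 and -1.56). All 3 S libraries were again the lower ones in both lines. Among the 5 sensing genes, 3 were lower in A375 polysomes (median -1.38) and 4 in Yumm1.7 polysomes (median -1.13). This compares with 15.6% and 22.5% of all genes lower in those libraries. In A375, 0 were lower in input (median -0.65) and 1 in monosomes (median -0.59), beside 16.2% and 13.2%. In Yumm1.7, 3 were lower in input (median -1.12) and 2 in monosomes (median -0.35), beside 22.3% and 24.0%. An antisense gene to STARD4 is listed in the A375 table, and the strand setting of the authors' counting is not known.

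Levels per length of the sterol steps were not ordered alike in the lines. In A375, FDFT1 (squalene synthase) and FDPS (farnesyl diphosphate synthase) averaged 169.9 and 159 TPM over the 6 libraries, followed by EBP at 48.2 and PMVK at 47.1 TPM. MVK, the mevalonate kinase, was lowest at 6.65 TPM. In Yumm1.7, Fdps averaged 157 TPM and Ebp 58.7 TPM, Fdft1 only 14.6 TPM, and Hsd17b7 was lowest at 3.79 TPM. With 1 library per group, the order of neighbours with like means is not established. FDPS, CYP51A1 and HSD17B7 have pseudogenes in the A375 table, and mouse Acat2 has the close copy Acat3, so the split of reads between copies makes these levels less certain.

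The sterol step with the largest input difference in both lines was TM7SF2 (chr11:65111872-65116230 in GRCh38), a reductase of the sterol nucleus that acts just after lanosterol demethylation. In A375 it stood at 7.66, 3.54 and 2.19 TPM in P and at 63.2, 22.6 and 40.9 TPM in S, or 3.09, 2.34 and 3.92 log2 units above the median gene. In Yumm1.7 it stood at 7.01, 3.11 and 7.79 TPM in P and 13.7, 18.1 and 13.9 TPM in S (1.81, 2.42 and 2.29). All 3 S libraries were above all 3 P libraries in each line. LBR, the inner nuclear membrane protein that catalyses the same reduction, lay on the other side. It stood at 46.5, 34.5 and 79.5 TPM in A375 P and 19.7, 15.04 and 13.4 TPM in S (-0.997, -1.19 and -2.27). In Yumm1.7 it went from 49.6, 65.1 and 42.9 TPM in P to 1.302, 2.24 and 0.547 TPM in S (-3.52, -4.14 and -3.30). In P the input libraries of both lines held more LBR than TM7SF2 mRNA per length, and in S they held more TM7SF2 than LBR.

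The other A375 sterol steps past 2-fold in input were all lower. ACAT2, the cytosolic thiolase that joins acetyl-CoA units, stood at 39.3, 6.32 and 71.4 TPM in P and 9.78, 4.04 and 27.4 TPM in S (-1.70, -0.58 and -1.14). SQLE, the squalene epoxidase and a rate-limiting step of the later route, stood at 23.5, 6.42 and 38.04 TPM in P and 8.31, 4.22 and 10.6 TPM in S (-1.20, -0.55 and -1.54). CYP51A1, the lanosterol demethylase, stood at 47.7, 26.6 and 61.2 TPM in P and 16.6, 17.6 and 18.3 TPM in S (-1.27, -0.60 and -1.48). For these 3 genes the input and polysome libraries of S lay below those of P, and the monosome difference was smaller. MVK (-1.11) and DHCR7 (-1.07) made up the 5, and DHCR7, which reduces the sterol ring at carbon 7, was lower in all 3 fractions (-1.07, -1.07 and -1.34). The remaining 12 sterol steps ranged from -0.89 (LSS, lanosterol synthase) to 0.55 (MVD, mevalonate diphosphate decarboxylase) in input.

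The sterol steps of Yumm1.7 lay on both sides of the median gene, and the share of higher ones (4 of 18 in input) was close to the 23.1% of all genes. Msmo1, which begins removal of the methyl groups at carbon 4 of the sterol, stood at 62.3, 85.4 and 94.2 TPM in P and 8.88, 9.56 and 9.96 TPM in S (-1.75, -2.82 and -1.59). Idi1, the isomerase that prepares isoprene units for joining, stood at 13.2, 26.9 and 27.2 TPM in P and 1.39, 4.28 and 1.05 TPM in S (-1.63, -2.19 and -2.25). Both were lower in S in every fraction, as was Lss (-1.52, -1.07 and -1.39). Ebp, the sterol isomerase that moves a bond within the sterol ring, stood at 47.6, 28.8 and 64.9 TPM in P and 73.02, 60.4 and 77.2 TPM in S. The S library was the higher in each fraction, and against a median gene that was lower in S the differences come to 1.54, 1.25 and 1.78. Pmvk (1.33, 2.37 and 1.06) was also higher in all 3 fractions, with 10.6 TPM in P monosomes and 50.9 TPM in S monosomes. The higher calls rest on the centring. Without it the input differences were 0.88 for Tm7sf2, 0.61 for Ebp, 0.39 for Pmvk and 0.33 for Mvd, all within 2-fold, and the Pmvk polysome difference was -0.47.

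Over all 3 fractions, in A375 TM7SF2 and CPT1A were higher throughout, against 6.24% of all genes, and DHCR7, SCD, ELOVL6 and FADS1 were lower throughout, against 6.33%. In Yumm1.7, 5 genes were higher throughout (Pmvk, Tm7sf2, Ebp, Elovl1 and Cpt1a, beside 14.1% of all genes). These higher counts are near the background in both lines. The 8 lower throughout were Idi1, Lss, Msmo1, Elovl6, Insig1, Stard4, Acsl3 and Acsl4, beside 11.7%.

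The fatty acid steps of A375 lay below the median gene in S in input and polysomes, except ELOVL1. FASN (chr17:82078338-82098236), the synthase that assembles palmitate, stood at 90.3, 18.7 and 132 TPM in P and 20.01, 9.53 and 31.6 TPM in S (-1.92, -0.94 and -1.82). ACACA, the carboxylase that makes malonyl-CoA and commits carbon to the route, stood at 23.3, 9.07 and 26.3 TPM in P and 7.21, 6.45 and 9.62 TPM in S (-1.37, -0.47 and -1.16). In both cases each S library was below the P library of the same fraction. ELOVL6 (chr4:110045846-110199202), which extends palmitate to stearate, stood at 19.3, 8.51 and 19.9 TPM in P and 5.25, 3.74 and 4.24 TPM in S (-1.50, -1.04 and -1.79). FADS1, a desaturase of long polyunsaturated fatty acids, stood at 49.6, 23.6 and 56.95 TPM in P and 15.5, 9.31 and 14.2 TPM in S (-1.42, -1.29 and -1.72). SCD, which makes oleate from stearate, was the most abundant of the desaturases and also lower throughout (-1.08, -1.37 and -1.58). ELOVL1, which extends very long saturated chains (0.37, 0.08 and 0.18), and ELOVL5 (-0.04, 0.78 and -0.35) were within 2-fold of the median gene in every fraction, as was ACLY (-0.65, -0.01 and -0.53), which releases acetyl-CoA from citrate. FADS2, at a mean of 4.48 TPM, was past 2-fold lower in polysomes only (-0.95, -0.84 and -1.58).

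Yumm1.7 shared the lower ELOVL6 but not the lower FASN. Elovl6 stood at 20.1, 21.05 and 21.5 TPM in P and 0.995, 3.42 and 1.22 TPM in S (-2.47, -2.11 and -1.81), and every S library was below every P library. Acly stood at 32.8, 23.7 and 61.2 TPM in P and 6.05, 11.95 and 3.96 TPM in S (-1.33, -0.72 and -2.12). Scd1 stood at 45.1, 80.6 and 54.1 TPM in P and 9.99, 29.6 and 10.2 TPM in S (-1.13, -1.21 and -0.77). These 3 were the fatty acid steps past 2-fold lower in Yumm1.7 input. Elovl1 stood at 103, 46.3 and 129.6 TPM in P and 119, 119.7 and 104 TPM in S. Its deposited level was higher in S in input and monosomes and lower in polysomes, which comes to 1.14, 1.56 and 1.21 against a lower median gene. Without centring the polysome difference was -0.32. Fasn stood at 29.9, 10.7 and 26.1 TPM in P and 31.01, 33.3 and 15.7 TPM in S (0.99, 1.76 and 0.83), so only its monosome level was past 2-fold higher. Scd1 and Scd2 are near copies, and Scd2 was the more abundant at a mean of 121 TPM beside 38.3 TPM.

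**Figure D2:**
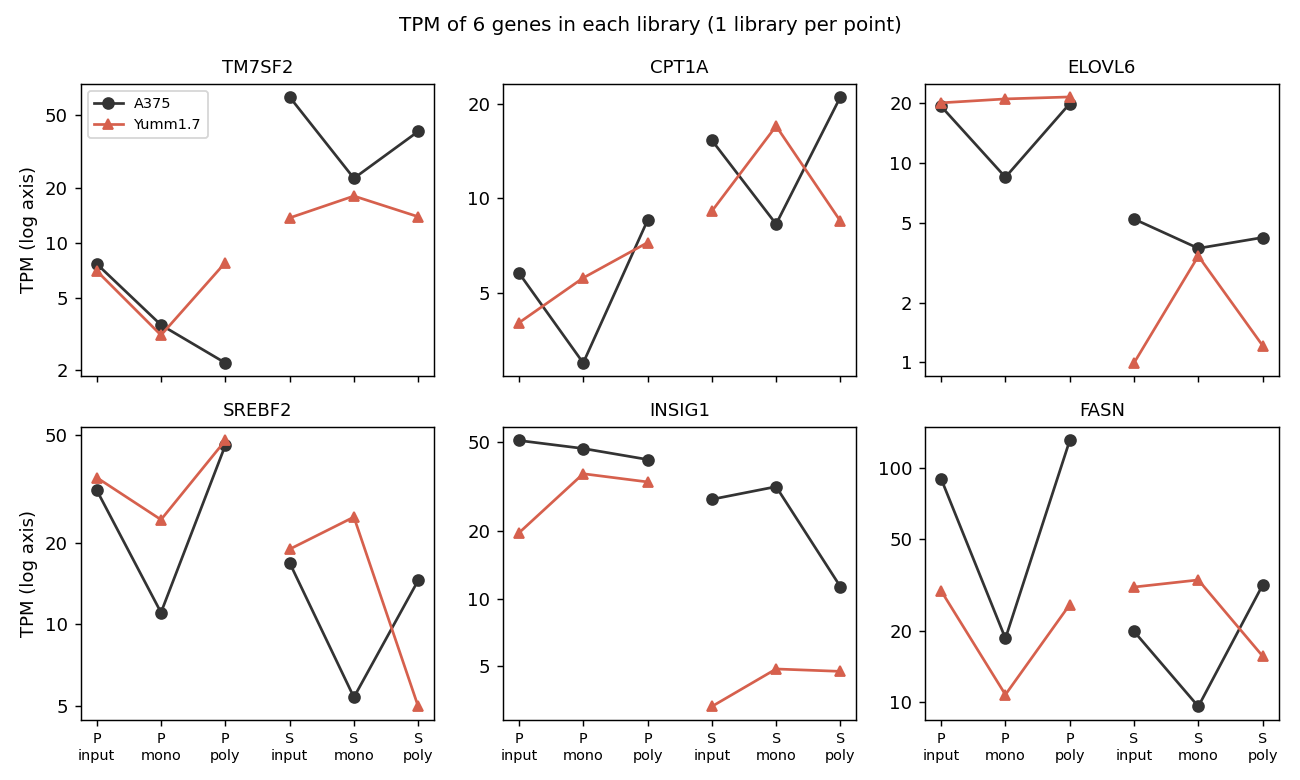
TPM (log axis) of 6 genes in each of the 12 libraries, A375 as grey circles and Yumm1.7 as red triangles, with P at the left and S at the right of each panel. TM7SF2 and CPT1A lie higher and ELOVL6 lower in S in both lines in every fraction, and Yumm1.7 SREBF2 is at 24.9 TPM in S monosomes and 4.98 TPM in S polysomes.

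Among the acyl-CoA genes, CPT1A was higher in both lines and the long-chain acyl-CoA synthetases lay below the median gene. CPT1A (chr11:68754620-68844277), which couples fatty acids to carnitine for entry into mitochondria, stood at 5.78, 2.99 and 8.501 TPM in A375 P and 15.3, 8.28 and 21.02 TPM in S (1.46, 1.18 and 1.42). In Yumm1.7 it stood at 4.01, 5.58 and 7.22 TPM in P and 9.096, 16.98 and 8.46 TPM in S (1.95, 1.66 and 1.73). Each S library was above the P library of the same fraction in both lines. ACSL3, the synthetase of lipid droplets and the endoplasmic reticulum, stood at 184, 40.7 and 234 TPM in A375 P and 54.9, 26.7 and 72.01 TPM in S (-1.53, -0.63 and -1.48). In Yumm1.7 it stood at 15.2, 8.52 and 27.1 TPM in P and 2.33, 2.304 and 2.71 TPM in S (-1.35, -1.32 and -1.39). An antisense gene to ACSL3 is listed in the A375 table. ACSL4, which prefers arachidonic and related polyunsaturated acids and is known for its role in ferroptosis, stood at 19.9, 11.8 and 27.7 TPM in A375 P and 9.44, 11.6 and 10.99 TPM in S (-0.80, -0.07 and -1.05). Its Yumm1.7 levels were 19.2, 26.7 and 33.8 TPM in P and 0.559, 1.797 and 3.09 TPM in S (-2.76, -3.10 and -1.56), the lowest input and monosome differences of any of the 37 mouse genes. ACSL1 stood at 41.9, 19.5 and 65.9 TPM in A375 P and 25.5, 16.7 and 34.8 TPM in S (-0.50, -0.25 and -0.69). Mouse Acsl1 stood at 4.06, 4.65 and 8.198 TPM in P and 1.02, 2.02 and 0.987 TPM in S (-0.39, -0.70 and -0.68), below the median gene but within 2-fold of it in both lines.

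Side by side, the lines had in common 2 genes past 2-fold higher in input (TM7SF2 and CPT1A) and 4 past 2-fold lower (SQLE, CYP51A1, ELOVL6 and ACSL3). Of the 8525 genes tested in both lines and matched by symbol, 6.56% were higher in both and 7.89% lower in both. None of the 36 was at least 2-fold in opposite directions in input, beside 1.95% of the matched genes. In polysomes 7 genes were lower in both lines, namely CYP51A1, ELOVL6, SREBF2, INSIG1, STARD4, ACSL3 and ACSL4, beside 7.82% of the matched genes. TM7SF2 and CPT1A were the 2 higher in both, beside 6.97%. TM7SF2 and CPT1A were higher in all 3 fractions of both lines, as were 2.05% of the matched genes, and ELOVL6 was lower in all of them, as were 2.7%. Without centring, Yumm1.7 Tm7sf2 was at 0.88, 2.21 and 0.76 and Cpt1a at 1.01, 1.45 and 0.20, so that neither was past 2-fold higher in all 3 fractions, while Elovl6 was past 2-fold lower in each. EBP, DHCR7, ACACA and FASN lay below the median gene in all 3 fractions of A375 and above it in all 3 of Yumm1.7, a share below the 13.1% of matched genes that lay on opposite sides in this way. The tables of the lines were made separately, so only differences within a line are set side by side, and the difference between lines was not tested.

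**Figure D3:**
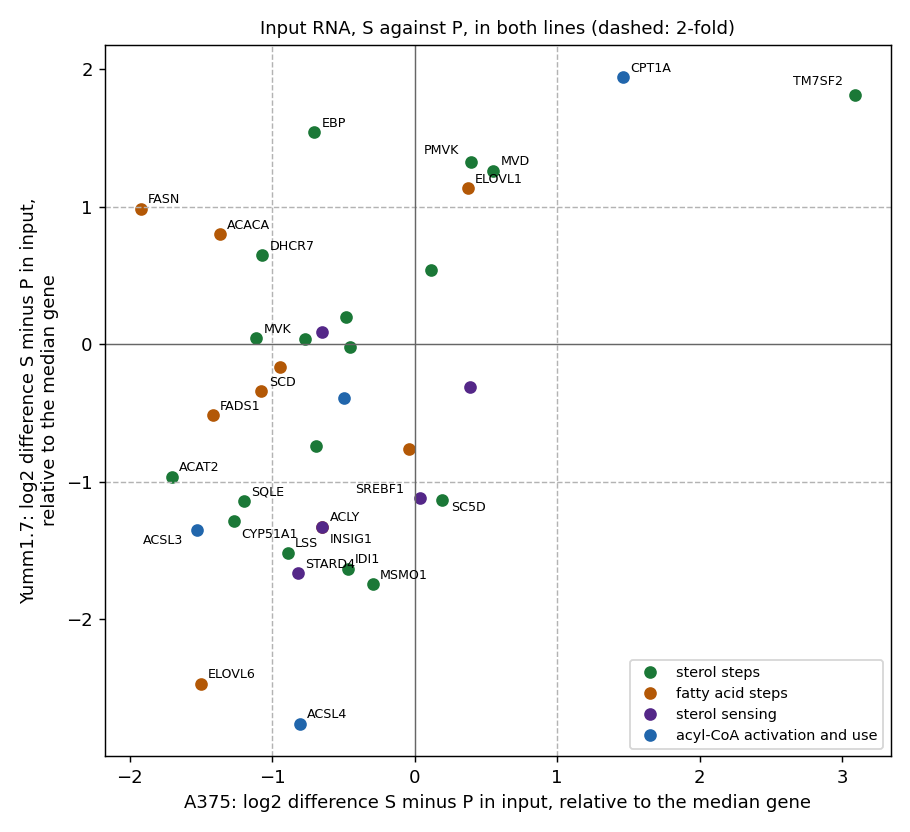
Input difference of S against P, relative to the median gene (log2), in A375 (horizontal) and Yumm1.7 (vertical) for the 36 genes, coloured by role, with mouse Scd1 and Scd2 summed. Dashed lines mark 2-fold. TM7SF2 and CPT1A lie at the upper right, 4 genes lie past 2-fold at the lower left, and no gene lies past 2-fold in opposite directions.

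Sterol and fatty acid steps were also compared as sums over all 12 libraries. In A375 P the 18 sterol steps summed to 839, 250.02 and 1271 TPM and the 9 fatty acid steps to 678, 286 and 1029 TPM. In A375 S the sums were 562, 233 and 923 TPM and 401, 225 and 537 TPM. Both routes therefore made up a smaller part of input and polysome mRNA in A375 S, and the fatty acid sum in polysomes was lower by more. In Yumm1.7 P the sterol steps summed to 624, 381 and 970.2 TPM and the fatty acid steps to 527, 509.7 and 715 TPM. In Yumm1.7 S the sums were 325, 334 and 393 TPM and 294, 381 and 273 TPM.

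The ratio of the fatty acid to the sterol sum was highest in the monosome library of each line and state. It was 0.808 in input, 1.14 in monosomes and 0.8098 in polysomes for A375 P, and 0.713, 0.965 and 0.582 for A375 S. For Yumm1.7 it was 0.844, 1.34 and 0.737 in P and 0.905, 1.14 and 0.694 in S. The fatty acid sum exceeded the sterol sum in 3 of 12 libraries, the A375 P, Yumm1.7 P and Yumm1.7 S monosomes. It was highest in monosomes in each line and state also when the most abundant gene of each list was left out, and the fatty acid sum was then the larger in 4 libraries. With the medians of the lists in place of sums, the fatty acid steps were above the sterol steps in 12 of 12 libraries, and in A375 the ratio was then highest in input for P (4.18 beside 3.58 in monosomes) and in polysomes for S (1.32 beside 1.31). With Scd1 alone for Yumm1.7, the fatty acid sum was the larger in 1 library, the A375 P monosomes, and in no Yumm1.7 library (highest ratio 0.924).

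**Figure D4:**
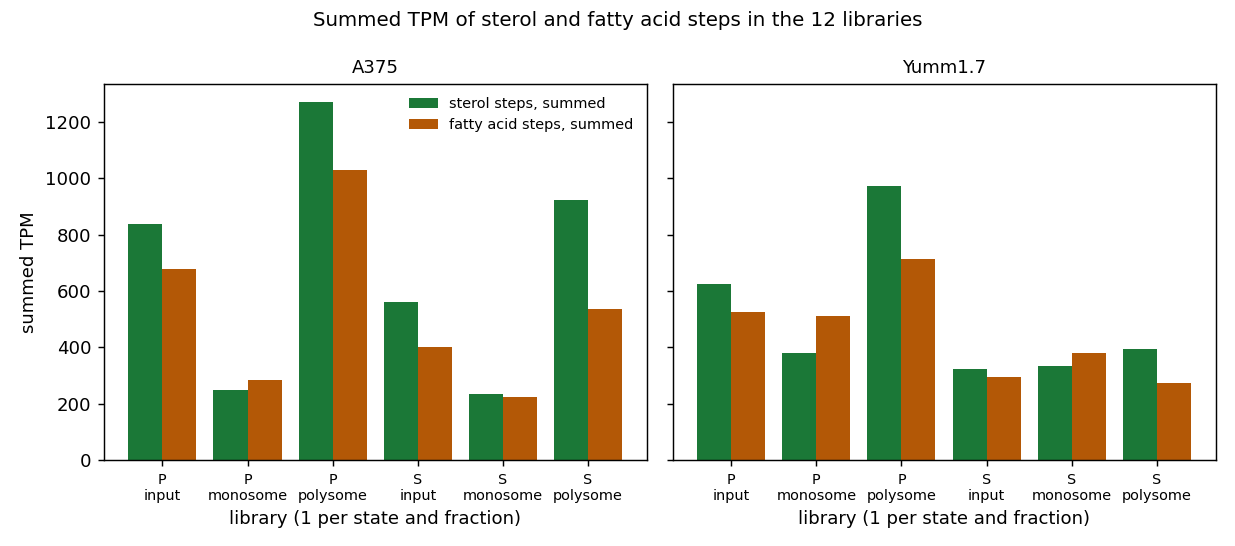
Summed TPM of the sterol steps (green) and fatty acid steps (brown) in each of the 12 libraries, 1 library per pair of bars. Fatty acid bars are the taller only in the A375 P, Yumm1.7 P and Yumm1.7 S monosome libraries, and both bars are shorter in S than in P in the input and polysome libraries of each line.

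Position on the gradient was described by the polysome TPM over the monosome TPM, again relative to the median gene on the log2 scale. In A375, most of these mRNAs leaned more to polysomes than the median gene did. In P, 13 of 36 genes were at least 2-fold above the median gene and 2 below, against 19.1% and 20.8% of all genes. In S, 12 were above and 1 below, against 20.8% and 16.7%. Without centring the counts were 32 above and 0 below in P, and 22 above and 1 below in S. The median gene was then itself at 1.05 in P and 0.67 in S, so that most genes tested were past 2-fold above in P. All 9 fatty acid steps lay above the median gene in P (median 0.45) and 3 of 9 in S (median -0.11), while 16 of 18 sterol steps lay above it in each state (medians 0.95 and 0.89). The difference in the ratio, S against P, lay below the median gene for 8 of the 9 fatty acid steps (median -0.64) and for 12 of 18 sterol steps (median -0.23). TM7SF2 was the 1 gene past 2-fold upward (1.63) and ELOVL5 the 1 downward (-1.09), against 13.1% and 7.88% of all genes. Without centring 1 was upward and 8 were downward, with the median gene itself at -0.29.

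Single A375 genes covered a wide range, here as the plain ratio of TPM. ACAT2 had 11.3 times as much TPM in polysomes as in monosomes in P and 6.79 times in S. FDPS had 7.83 and 9.502 times, and NSDHL, a dehydrogenase of sterol demethylation, 8.37 and 9.796 times. INSIG1 and TM7SF2 had the lowest ratios in P. INSIG1 had 0.893 in P and 0.358 in S, or -1.21 and -2.07 relative to the median gene. TM7SF2 had 0.619 in P and 1.81 in S. ELOVL5, an elongase of polyunsaturated fatty acids, went from 3.58 to 1.36. Its monosome level was 43.4 TPM in P and 77.3 TPM in S, and its polysome level 155 and 105 TPM.

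Within a state, few Yumm1.7 genes stood apart on the gradient, in shares below those of all genes. In P, 4 of 37 genes were above and 3 below, against 14.0% and 13.4% of all genes. In S, 2 were above and 3 below, against 13.2% and 10.9%. Without centring 18 were above and 0 below in P, and 1 above and 9 below in S, with the median gene itself at 0.91 and -0.46. Between S and P the ratio was past 2-fold upward for 5 genes and downward for 7, against 17.3% and 12.6%, and without centring for 0 and 27. The median gene's own ratio differed by -1.42 log2 units in S, so an upward value can stand for a ratio that was merely kept. Without centring, most genes tested were therefore past 2-fold downward.

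Downward, Srebf2 had 1.96 times as much TPM in polysomes as in monosomes in P and 0.2000 times in S (-1.64 relative to the median gene). Hmgcs1, the synthase that makes HMG-CoA, went from 1.09 to 0.153 (-1.07), with 19.4 TPM in S monosomes and 2.97 TPM in S polysomes. Srebf1 went from 5.66 to 0.699 (-1.39). The others were Acat2 (-1.16), Pmvk (-1.22), Acly (-1.30) and Acaca (-1.12). Upward, Hsd17b7 (2.19), Acsl4 (1.64), Insig1 (1.51), Scd2 (1.37) and Msmo1 (1.33) were the 5. Without centring, Msmo1 (-0.09) and Scd2 (-0.05) lay just below 0. Insig1, for example, had a ratio of 0.919 in P and 0.976 in S.

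**Figure D5:**
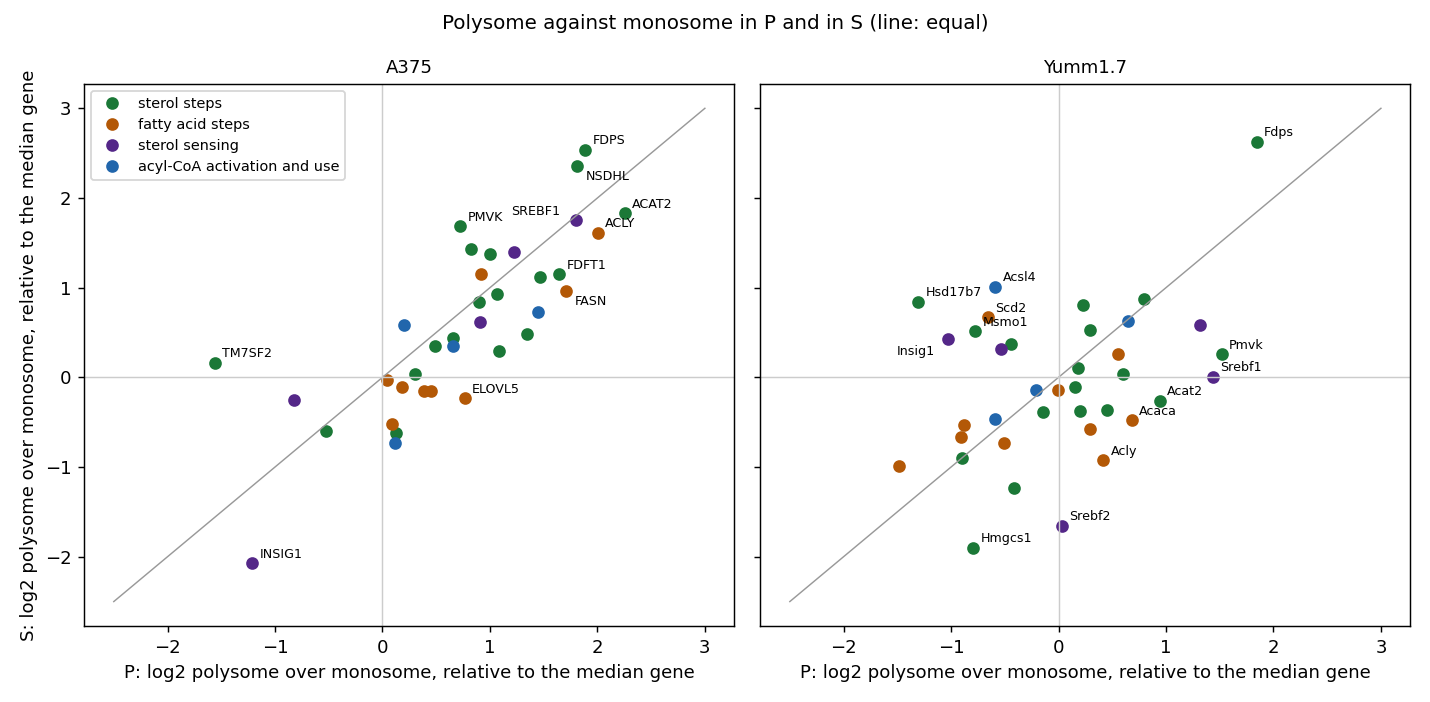
Log2 ratio of polysome to monosome, relative to the median gene, in P (horizontal) and S (vertical) for each gene, in A375 (left) and Yumm1.7 (right). The grey diagonal marks equal values. A375 fatty acid steps (brown) lie below the diagonal except ELOVL1, and Yumm1.7 SREBF2 lies furthest below it.

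Other genes of the same pathways, taken from lists chosen by function, were read in the same way in input. The shares of all genes to set beside these counts are 15.6% higher and 16.2% lower in A375 and 23.1% higher and 22.3% lower in Yumm1.7. Some counts are near these shares and others are not. The lists are short, so that a few genes move a share a long way, and departures were not tested. Of 8 further sterol enzymes, 1 was higher and 1 lower in A375, and 0 higher and 2 lower in Yumm1.7. Of the genes of cholesterol uptake, release and export, 3 of 10 were higher and 1 lower in A375, and 4 of 12 higher and 4 lower in Yumm1.7. LIPA, the lysosomal lipase that frees cholesterol from its esters, was higher in both lines (1.34 and 1.995). NPC1, which exports that cholesterol from lysosomes, was lower in Yumm1.7 input (-2.20).

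Among 5 genes of SREBP processing and the oxysterol receptors, none passed 2-fold in A375 input, and 2 of 4 were higher and 1 lower in Yumm1.7. NR1H2, which encodes LXR beta, was at 0.58 in A375 and 1.87 in Yumm1.7. Of further fatty acid enzymes, 0 of 14 were higher and 3 lower in A375 input, and 4 of 13 higher and 1 lower in Yumm1.7. ELOVL2, an elongase of very long polyunsaturated chains, stood at 20.8 TPM in A375 P and 1.300 TPM in S (-3.05). MID1IP1, an activator of acetyl-CoA carboxylase, was lower in both lines (-1.36 and -1.15). Tecr, the last reductase of the elongation cycle, was higher in Yumm1.7 (2.56, from 247 to 766 TPM). Of 4 enzymes that supply cytosolic NADPH, IDH1 was lower in both lines (-1.05 and -1.69) and the other 3 were within 2-fold.

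Genes of mitochondrial fatty acid oxidation encode the route that CPT1A feeds. In input, 4 of 16 were higher and 0 lower in A375 (median 0.25), near the 15.6% higher among all genes, and 8 of 17 were higher and 2 lower in Yumm1.7 (median 0.81), beside 23.1% and 22.3%. In A375 polysomes 4 were higher and 0 lower (median 0.30), and in Yumm1.7 polysomes 9 were higher and 1 lower (median 1.01), beside 16.5% higher and 15.6% lower of all genes in A375 polysomes and 24.1% and 22.5% in Yumm1.7 polysomes. ACADS, the short-chain dehydrogenase, stood at 5.96 TPM in A375 P input and 22.9 TPM in S (1.98). ACADVL, the very long chain dehydrogenase, stood at 190.3 and 487 TPM (1.55). In Yumm1.7, Etfb and Etfa, the subunits of the flavoprotein that collects electrons from these dehydrogenases, parted, at 2.23 and -2.70. Of the glycerolipid and lipid droplet genes, 3 of 16 were higher and 2 lower in A375 input, and 6 of 16 higher and 1 lower in Yumm1.7. MGLL, which splits monoacylglycerols, was the lowest in A375 (-3.31), and Dgat1, which makes triacylglycerol, the highest in Yumm1.7 (3.49).

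Transcript GC content moved with these differences in Yumm1.7. Over the 36 genes, with the longest human protein-coding transcript standing for both species, Pearson's r between GC content and the S against P difference was 0.60 in input, 0.72 in monosomes and 0.49 in polysomes. Over all 9447 genes with a value, r was 0.34, 0.47 and 0.34. In A375 r was 0.26, 0.22 and 0.33 over the 36 genes, and 0.17, -0.09 and 0.13 over 10797 genes. With the log of transcript length in place of GC content, r in A375 was -0.47, -0.30 and -0.51 over the 36 genes. Over the 10797 genes it was -0.07, 0.13 and -0.13. For the A375 ratio change, r with length was -0.57 over the 36 genes and -0.33 over the 10797. In Yumm1.7, r with length was -0.34, -0.23 and -0.48 over the 36 genes. Over the 9447 genes it was -0.05, -0.11 and -0.20. The genes share libraries and are not independent replicates, so no test is given. The lower Yumm1.7 genes Msmo1 (38.1% GC), Idi1 (41.1%) and Elovl6 (41.2%) and the higher Tm7sf2 (62.0%), Pmvk (59.5%) and Ebp (53.5%) lie on either side. Others do not follow this order, since Lss (58.3%) was lower in every fraction, Srebf1 (64.7%) was lower in input, and Cpt1a (50.8%) was higher throughout. Against genes of like GC content, the input differences of Tm7sf2 (0.86), Pmvk (0.62) and Elovl1 (0.74) were within 2-fold, while Msmo1 (-1.14), Idi1 (-1.11) and Elovl6 (-1.95) were past 2-fold lower and Cpt1a (1.94) past 2-fold higher. On this basis 1 of 18 sterol steps was higher and 4 lower in Yumm1.7 input, and 0 of 10 fatty acid steps were higher and 2 lower. The part of GC content beyond this was not tested, nor was that of transcript length in either line.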

How the data were processed

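Polysome profiling RNA libraries of A375 and Yumm1.7 cells (12, 1 per line, state and fraction) were compared. The values the authors deposited are TPM per gene. Per the labels' protocols, poly-T beads selected mRNA and priming was random. Per the submitters' processing notes, the builds were GRCh38 (hg38) and GRCm38 (mm10). For the aligner, quantifier, annotation and strandedness, the entry is: not given in the sources used here. TPM keeps no depth, so no counting interval was possible.

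Groups were read from sample titles. Symbols were matched in capitals (Cyp51 as CYP51A1), and 0 columns were left out. Values were taken as log2(TPM + 1) for genes averaging 1 TPM or more across the 6 libraries of a line, relative to the median gene, and counted at 2-fold. The arithmetic was tested on simulated data. Python 3.11.15, pandas 2.3.3, numpy 2.4.6 and matplotlib 3.10.9 were used. Promoters and gene positions are RefSeq's on GRCh38, and transcript GC content and length come from GENCODE.

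Genes given with every library were, in each line, the 4 sterol and 4 fatty acid steps with the largest input difference that averaged 5 TPM or more, the sensing and acyl-CoA genes, and genes past 2-fold in all fractions of both lines. Up to 3 genes of each further list were named, and the others were named after their values were seen. For several genes under this rule, values are not reported here. The genes and lists were chosen with earlier results of these data known. Each comparison was recomputed under 6 alternatives, and a GC-matched centring was added after seeing the data.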

Additional observations from a re-analysis of the deposited data

Results flagged for a closer look

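The sign of the difference between S and P, relative to the median gene, was opposite in the 2 lines in all 3 fractions for 4 of the 36 genes. The difference between the lines was not tested. EBP was at -0.70, -0.59 and -0.36 in A375 and at 1.54, 1.25 and 1.78 in Yumm1.7 (input, monosome and polysome). DHCR7 was at -1.07, -1.07 and -1.34 in A375 and at 0.65, 0.95 and 0.08 in Yumm1.7. ACACA was at -1.37, -0.47 and -1.16 in A375 and at 0.80, 1.30 and 0.08 in Yumm1.7. FASN was at -1.92, -0.94 and -1.82 in A375 and at 0.99, 1.76 and 0.83 in Yumm1.7. Each value rests on 1 library per state, and 13.1% of all 8525 matched genes met the same condition, so the share among the 36 genes is below that among all genes. The Yumm1.7 polysome values of DHCR7 and ACACA lie next to the median gene.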

How the results depend on the processing

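Each call of a single gene was compared once under each alternative, so a call is counted several times. Of these comparisons, 912 kept the direction and side of 2-fold, 82 lost 2-fold and 5 reversed. The reversed ones were, without centring on the median gene, PMVK (-0.47) and ELOVL1 (-0.32) in Yumm1.7 polysomes and the ratio change of MSMO1 (-0.09) and SCD2 (-0.05), and, with GC-matched centring, MVD in Yumm1.7 monosomes (-0.05). Of the counts, likewise taken once under each alternative, 127 stayed within 1.5 times and 40 did not. The cause was not tested, except that leaving out the centring adds the median gene's own difference to each value. The shares of all genes were not counted without centring.

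Without centring, the counts of genes became, in polysomes against monosomes, 32 higher and 0 lower in A375 P, 22 higher in A375 S, 18 higher and 0 lower in Yumm1.7 P, and 1 higher and 9 lower in Yumm1.7 S. The ratio change then had 8 lower in A375 and 27 lower and 0 higher in Yumm1.7, and S against P in Yumm1.7 had 22 lower and 1 higher in input and 28 lower and 0 higher in polysomes. With a pseudocount of 0.1 TPM there were 8 lower in A375 monosomes, 8 higher in Yumm1.7 polysomes, 6 lower on the Yumm1.7 P gradient, 4 higher on the Yumm1.7 S gradient and 8 higher for the Yumm1.7 ratio change. With no filter on low values there were 22 higher and 1 lower on the A375 P gradient, 4 lower for the A375 ratio change, 3 higher in Yumm1.7 polysomes, and 1 higher and 6 lower on the Yumm1.7 S gradient. With a mean of at least 5 TPM, 5 were lower on the Yumm1.7 P gradient and 4 for the Yumm1.7 ratio change. Centred on genes of at least 10 TPM, 2 were lower on the A375 S gradient, 8 lower on the Yumm1.7 P gradient, and 4 lower and 8 higher for the Yumm1.7 ratio change. With upper quartile scaling, 3 were lower on the A375 S gradient, 3 for the A375 ratio change, 5 on the Yumm1.7 P gradient, and 6 lower and 1 higher on the Yumm1.7 S gradient. With GC-matched centring, added after seeing the data, 2 were higher in Yumm1.7 input and 5 in Yumm1.7 monosomes. The fatty acid steps exceeded the sterol steps in 12 libraries by list medians and in 1 with Scd1 alone, beside 3 as summed. The median of the sterol steps in Yumm1.7 changed sign in input without a filter (-0.24) and with upper quartile scaling (-0.17). It also did so in input without centring (-0.93) and with GC-matched centring (-0.34). In polysomes it changed from -0.15 to 0.02 with a pseudocount of 0.1 TPM.

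No paired analysis was possible because each line, state and fraction has 1 library and the titles carry no replicate number. With no replicates and no depth, neither biological nor counting error can be set beside any value. Adding 1 TPM shrinks the differences of low genes before centring. In Yumm1.7, where the median gene was lower in S, centring then moves such values upward.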
